A study of Mus musculus with 20 samples.

Results

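The genes of nuclear oxidative phosphorylation described here are the 89 protein-coding genes on autosomes or the X chromosome whose symbols begin with Nduf followed by a, b, c, s or v and a number, with Sdha to Sdhd, Uqcr, Cox4 to Cox8 or Atp5, out of 35975 genes counted. The pattern used symbols alone and no measured value, although it was chosen with earlier results of these data known. They comprise 35 genes of complex I, 4 of complex II, 4 assembly factors of complex II that the symbol pattern also takes in (Sdhaf1 to Sdhaf4), 8 of complex III, 20 of complex IV with Ndufa4 and Ndufa4l2, and 18 of ATP synthase. Of these, 85 had enough counts to be tested among 18555 genes. The 4 that did not were Cox6a2, Cox8b, Cox8c and a second gene annotated as Atp5o.

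Messenger RNA was measured in TKO and WT cells of ES-E14TG2a (E14), a line of mouse embryonic stem cells. They were sampled as stem cells (D0) and at days 2, 4, 6 and 8 of differentiation towards neural progenitor cells (NPC). D0 cells grew without feeders on gelatin in serum with LIF, a cytokine that maintains pluripotency, and the later cells on laminin in N2B27, a serum-free neural medium. Each of the 10 groups of genotype and day held 2 libraries labelled biological replicates, 20 in all, and the labels do not say whether these came from separate clones or spell out what TKO stands for. Both genotypes went through the same differentiation, so WT and TKO differ in genotype alone as far as the labels say.

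Oxidative phosphorylation takes place in the inner mitochondrial membrane. Complex I takes electrons from NADH and complex II from succinate, complex III hands them to cytochrome c, complex IV passes them to oxygen, and ATP synthase uses the resulting proton gradient to make ATP. Most subunits are encoded in the nucleus and a small set in mitochondrial DNA, and some nuclear subunits of complex IV have a second gene used mainly in muscle, lung or testis. Pluripotent cells in culture are known for high glycolysis beside active mitochondria, and neurons for a high demand for respiration.

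Total estimated counts ran from 26015282 to 38074768 per library, and the 89 genes held 0.679% to 1.05% of them. Dnmt1, the maintenance DNA methyltransferase, had 74.8 to 96.7 CPM (counts per 1000000 after TMM scaling) in TKO libraries and 293 to 484 CPM in WT libraries. The libraries labelled D0 held the pluripotency markers of a list of 8 genes at a summed 6213 and 6051 CPM in TKO cells and 6524 and 6382 CPM in WT cells. At D8 the same sum was 1180.3 and 1114 CPM in TKO cells, against 74.0 and 49.4 CPM in WT cells, and none of the 8 was at 0 in either genotype. The neural progenitor markers summed to 658 and 664 CPM in TKO D8 libraries and 1484 and 1520.1 CPM in WT D8 libraries. These were bulk samples, so fewer cells of a type and less RNA per cell cannot be told apart. The 2 WT D0 libraries differed by more than 0.5 on the log2 scale for 7 of the 85 tested members, the 2 WT D4 libraries for 1, and the pairs of the 8 other groups for 0.

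Summed over the 89 genes, the members made up a smaller share of the counts from D4 on than at D0 in both genotypes, and the genotypes stood furthest apart at D8. The sum was 10496 and 10023 CPM at D0, 10928 and 10008 CPM at D2, 7811 and 7529.6 CPM at D4, 6866 and 7033 CPM at D6 and 7772 and 7728 CPM at D8 in the 2 TKO replicates. In the 2 WT replicates it was 9539.6 and 8921 CPM at D0, 11026 and 11497 CPM at D2, 8119 and 8114 CPM at D4, 6542 and 7118 CPM at D6 and 5942.5 and 5902 CPM at D8. TKO libraries lay above WT libraries at D0 and at D8 and below them at D2 and at D4, and at D6 the genotypes overlapped. The picture depended on how a level was scaled: in TPM, which divides counts by transcript length, the D8 sums were 18344 and 18474 in TKO cells and 18225 and 18200.0 in WT cells, and WT sums at D8 were no lower than the 17818 and 17388 TPM of WT cells at D0. TKO sums at D8 were below the 19537 and 19070 TPM of TKO cells at D0. The members have short transcripts, with a median length of 684 bases against 2426 for the other protein-coding genes tested, and their part in this difference between scales was not tested.

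**Figure D1:**
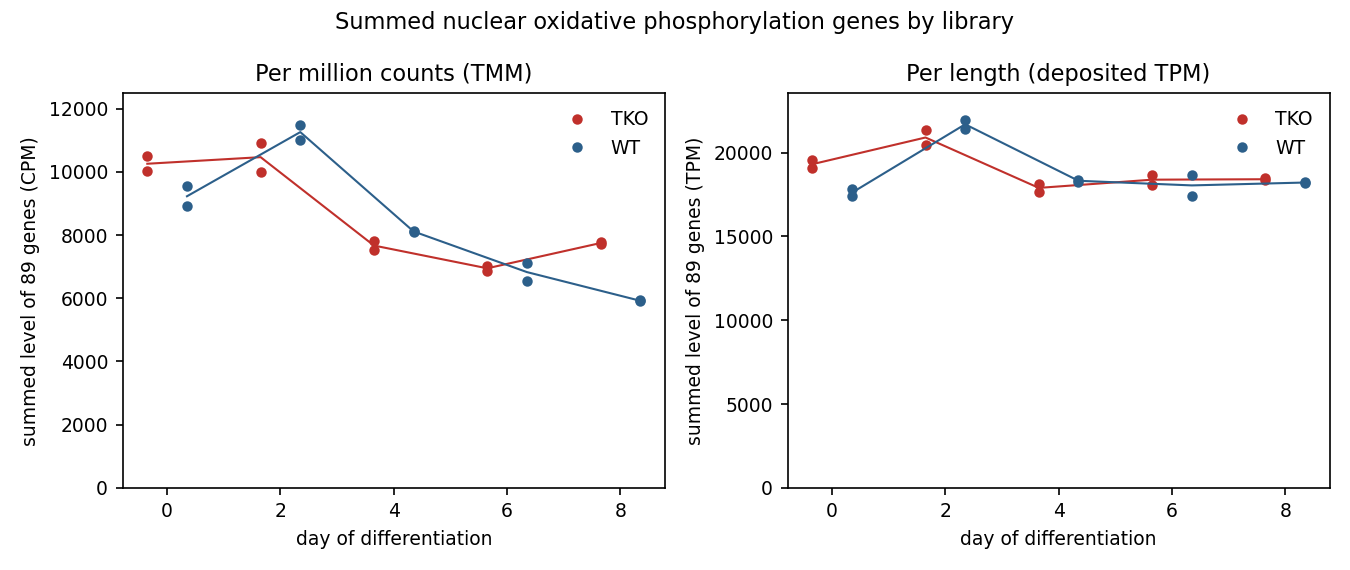
Summed level of the 89 genes by day in TKO and WT cells, in CPM after TMM scaling on one panel and in TPM on the other, with each point a library and each line through the mean of 2 libraries. In CPM the TKO libraries lie above the WT libraries at D0 and D8, while in TPM the D8 libraries of both genotypes lie between 18200.0 and 18474.

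At D8 most members were higher in TKO cells than in WT cells. Of the 85 tested, 61 rose (71.8%) and 3 fell (3.5%) at an adjusted p under 0.05 in edgeR's quasi-likelihood test, where 67.5% of all genes passed, 35.8% higher and 31.8% lower. The members' median log2 fold change was 0.31 after TMM scaling, 0.13 after scaling to total counts and -0.051 on the TPM scale. The medians over all genes were 0.038, -0.14 and -0.24, so that the members lay 0.27, 0.27 and 0.19 above all genes. The split of calls also moved with the scale: 37 higher and 8 lower with total counts, and 19 higher and 23 lower in TPM. Here and below, shares over all genes are those after TMM scaling. Splits on other scales therefore have no share of all genes beside them. The 1469 other protein-coding genes with transcripts under 1000 bases had a median of 0.40 at D8, with 696 higher and 252 lower. Pluripotency markers moved with the members at D8, all 8 being higher in TKO cells, and all 8 neuron markers were lower. Their part in the result was not tested.

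At D0, before differentiation, 46 members rose in TKO cells and 2 fell, where 39.3% of all genes passed, 19.4% higher and 19.9% lower. Their median log2 fold change was 0.23, against 0.00 over all genes, and 0.19 above all genes on the TPM scale, where 35 rose and 5 fell. Other short protein-coding genes had a median of 0.10. Without TKO D0 replicate 1 the D0 calls dropped to 31, with 28 higher and 3 lower. At D2 and D4 more members fell than rose, and at D6 the calls were mixed. At D2, 4 members rose and 17 fell, where 35.3% of all genes passed, 18.4% higher and 16.9% lower, and with total counts 6 rose and 11 fell. At D4, 3 rose and 13 fell, where 28.3% of all genes passed, 15.1% higher and 13.2% lower, and in TPM 6 rose and 9 fell. At D6, 9 rose and 5 fell, where 41.3% of all genes passed, 20.9% higher and 20.3% lower. The shares that passed at these 3 days were below those of all genes, and the counts moved with single libraries. The D2 count of 21 became 9 without WT D2 replicate 2 and 9 without TKO D2 replicate 2. The D4 count of 16 became 10 without WT D4 replicate 1, 10 without WT D4 replicate 2 and 7 without TKO D4 replicate 2. The D6 count of 14 became 23 without WT D0 replicate 2, 7 without TKO D6 replicate 1 and 6 without TKO D6 replicate 2. The 8 endoderm markers, a sign of another lineage, were all higher in TKO cells at D0. They summed to 358 and 397 CPM in TKO libraries and 22.8 and 30.5 CPM in WT libraries, with Afp and Ttr at 0 in WT. Their part in the D0 result was not tested.

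Over the 5 days, 38 of the tested members (44.7%) were higher in TKO cells at both D0 and D8, as were 10.9% of all genes. There were 20 (23.5%) higher at D8 and at no other day, against 15.2% of all genes, and 8 (9.41%) higher at D0 and at no other day, against 2.95%. The share that changed direction was near that of all genes: 19 members (22.4%) were higher at some day and lower at another, against 24.9% of all genes. Of these, 15 (17.6%) were higher at D8 and lower at D2 or D4, against 8.53% of all genes, and they rest on the D2 and D4 calls, whose counts dropped to 9 and 7 with single libraries left out. Cox7b2 was the 1 member higher at all 5 days (2.91% of all genes were), and 0 were lower at all 5 (1.92% of all genes). The 8 members that passed at no day were Atp5d, Atp5s, Ndufs3, Sdhaf2, Sdhaf3, Uqcrh, Cox7a1 and Ndufa4l2.

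**Figure D2:**
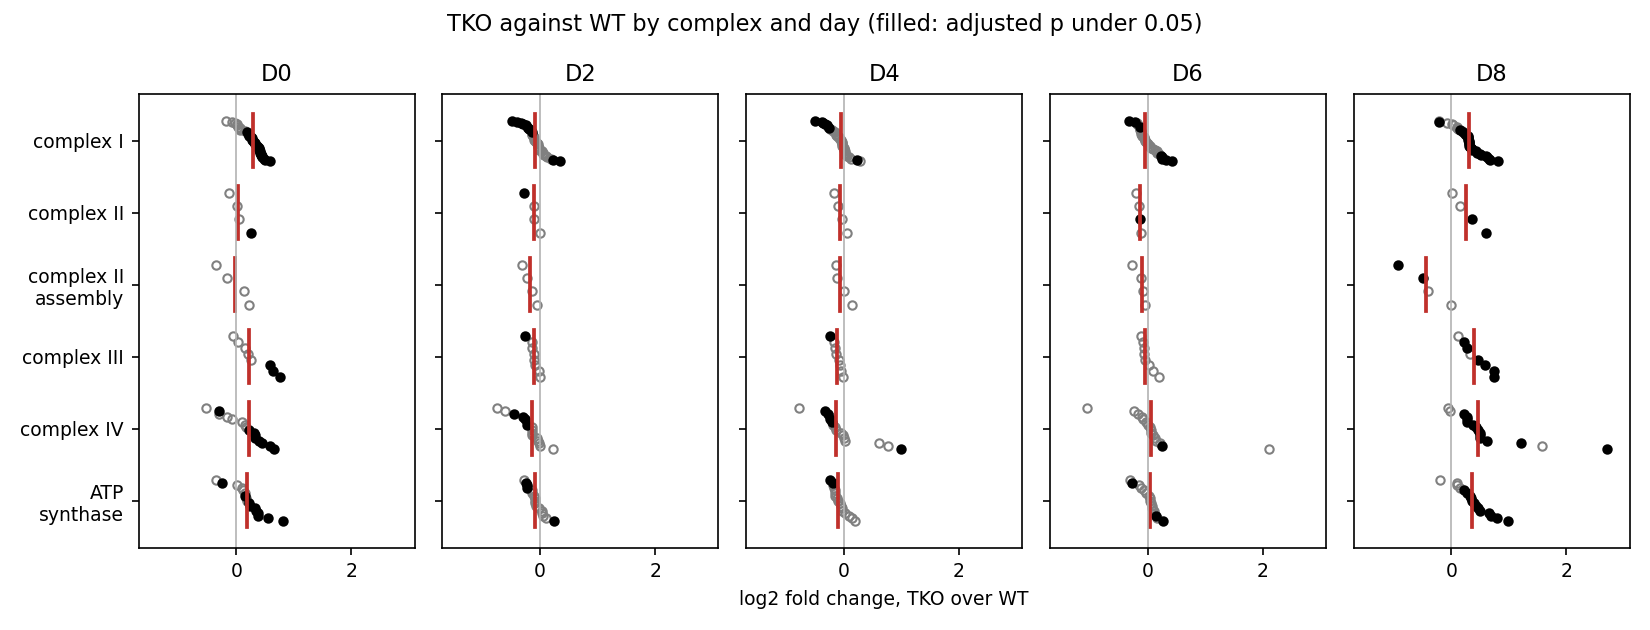
Log2 fold change of TKO over WT for each tested member by complex and day, after TMM scaling, with filled points for an adjusted p under 0.05 and bars at the median of each complex (Cox7b2 counts in the medians and is not drawn). At D8 the medians of all complexes are above 0 and that of the complex II assembly factors is -0.45, whereas on the TPM scale complexes I and II and ATP synthase have medians below 0 at D8.

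Complex I, the largest complex and the entry point for electrons from NADH, had 24 of its 35 genes higher in TKO cells at D0 and 26 higher and 1 lower at D8. At D2 and D4 the calls were 2 higher with 8 lower and 1 higher with 6 lower. Over all genes, 19.4% were higher and 19.9% lower at D0, and 35.8% and 31.8% at D8. The shares of all genes were 18.4% and 16.9% at D2 and 15.1% and 13.2% at D4. The iron-sulphur core subunit Ndufs1 of complex I had 157 and 155 CPM in TKO D0 libraries and 153 and 151 CPM in WT D0 libraries. Its log2 fold change of 0.033 ± 0.053 (SE) did not pass. At D8 it had 122 and 115 CPM in TKO cells, against 104 and 102 CPM in WT cells. The D8 groups did not overlap, and the log2 fold change of 0.20 ± 0.053 had an adjusted p of 0.00284, but it was -0.22 on the TPM scale, with an adjusted p of 0.00223 in limma.

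Ndufs6, an accessory subunit of the part that binds NADH, changed direction over time. It had 69.5 and 61.2 CPM in TKO D0 libraries against 53.4 and 46.2 CPM in WT D0 libraries. At D2 it had 77.1 and 70.5 CPM in TKO libraries against 85.7 and 95.1 CPM in WT libraries. Its D8 levels were 44.0 and 43.5 CPM in TKO libraries against 26.1 and 28.7 CPM in WT libraries. TKO libraries were above WT libraries at D0 and D8 and below them at D2. The log2 fold changes were 0.39 ± 0.084 at D0 (adjusted p = 0.00127), -0.29 ± 0.083 at D2 (adjusted p = 0.0104) and 0.67 ± 0.088 at D8 (adjusted p = 2.31e-06). The D2 call was lost without WT D2 replicate 2 (adjusted p = 0.153) and without TKO D2 replicate 2 (adjusted p = 0.11), and 15.1% of its 31-base words occur in transcripts of other genes, mainly Ndufs6b.

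Ndufa1 and Ndufa7, both accessory subunits, were also lower in TKO cells at D4 and higher at D8. Ndufa1 had 31.6 and 30.7 CPM in TKO D0 libraries and 21.6 and 19.9 CPM in WT D0 libraries. At D4 the values were 21.6 and 20.1 CPM in TKO libraries and 27.9 and 26.7 CPM in WT libraries. Its D8 levels were 22.9 and 22.7 CPM in TKO cells and 18.8 and 18.0 CPM in WT cells. The groups were apart at each of these days. The log2 fold changes of 0.59 ± 0.081 at D0, -0.39 ± 0.081 at D4 and 0.31 ± 0.083 at D8 had adjusted p of 2.06e-05, 0.00156 and 0.003, the last turning to -0.057 on the TPM scale. Ndufa7 stood at 84.6 and 81.7 CPM in TKO D8 libraries, against 54.8 and 53.4 CPM in WT D8 libraries. Its D4 levels were 84.8 and 78.2 CPM in TKO libraries, against 96.6 and 97.7 CPM in WT libraries. It rose at D8 (0.62 ± 0.073, adjusted p = 6.37e-07) and fell at D4 (-0.25 ± 0.071, adjusted p = 0.0129). The D4 call was lost without WT D4 replicate 2 (adjusted p = 0.0607) and without TKO D4 replicate 2 (adjusted p = 0.142).

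Ndufv3, an accessory subunit beside the flavoprotein that oxidises NADH, was the 1 complex I gene lower in TKO cells at D8. It had 63.4 and 63.7 CPM in TKO D0 libraries against 74.7 and 68.6 CPM in WT D0 libraries. At D4 it had 24.9 and 23.3 CPM in TKO libraries against 35.1 and 33.3 CPM in WT libraries. The D8 values were 31.1 and 31.4 CPM in TKO cells and 34.9 and 37.9 CPM in WT cells. TKO libraries were below WT libraries at all 5 days, and the log2 fold changes passed at D2 (-0.48 ± 0.072), D4 (-0.51 ± 0.075), D6 (-0.32 ± 0.073) and D8 (-0.22 ± 0.073, adjusted p = 0.0138). The D8 call was lost without WT D8 replicate 2 (adjusted p = 0.166), without TKO D8 replicate 1 (adjusted p = 0.071) and without TKO D8 replicate 2 (adjusted p = 0.0594).

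Other genes of complex I that stood at the ends of the range were Ndufc2, Ndufa11, Ndufa12, Ndufb11 and Ndufb3, all accessory subunits. Ndufc2, in the membrane arm, had 50.9 and 47.9 CPM in TKO D8 libraries and 28.6 and 27.4 CPM in WT D8 libraries (log2 fold change 0.82 ± 0.097, adjusted p = 7.77e-07). Ndufa11, another membrane-arm subunit, had 52.7 and 54.6 CPM in TKO D8 libraries and 36.6 and 33.9 CPM in WT D8 libraries (0.61 ± 0.079). Both were apart between genotypes at D8 and rose. Ndufa12 rose at D6 (0.42 ± 0.089, adjusted p = 0.00113), with 36.4 and 44.6 CPM in TKO cells and 28.2 and 32.3 CPM in WT cells, and 20.2% of its 31-base words are shared with other genes. Ndufb11 fell at D2 (-0.40 ± 0.061) and D4 (-0.35 ± 0.061), with 48.3 and 48.3 CPM in TKO D4 libraries and 61.5 and 62.0 CPM in WT D4 libraries. Ndufb3 rose at D0 (0.32 ± 0.079) and fell at D2 (-0.34 ± 0.079) and D4 (-0.33 ± 0.079), the D4 call being lost without TKO D4 replicate 2 (adjusted p = 0.0592). The shares of 31-base words held in common with other genes are 19.1% for Ndufb11 and 13.5% for Ndufb3.

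Ndufs8, an iron-sulphur core subunit, was higher in TKO cells at D0 and D4 and lower between them. It had 43.6 and 42.5 CPM in TKO D0 libraries and 36.8 and 34.8 CPM in WT D0 libraries. D2 values were 49.5 and 45.5 CPM in TKO libraries and 52.6 and 55.5 CPM in WT libraries. D8 values were 39.7 and 37.7 CPM in TKO libraries and 26.8 and 27.8 CPM in WT libraries. It rose at D0, D4 and D8 (0.50 ± 0.072 at D8, adjusted p = 6.87e-06) and fell at D2 (-0.19 ± 0.070, adjusted p = 0.0484). The D2 call was lost when any 1 of 15 libraries was left out (adjusted p of 0.0511 to 0.297), the D0 call without TKO D0 replicate 1 (adjusted p = 0.0593) and the D4 call without WT D4 replicate 1 (adjusted p = 0.118) or TKO D4 replicate 1 (adjusted p = 0.18). Ndufb7 and Ndufb4, accessory subunits of the membrane arm, were among the 4 members higher in TKO cells at D2. Ndufb7 had 125 and 114 CPM in TKO D2 libraries and 97.9 and 105 CPM in WT D2 libraries (0.23 ± 0.070, adjusted p = 0.0149), a call lost without WT D2 replicate 1 (adjusted p = 0.164) or TKO D2 replicate 1 (adjusted p = 0.175). Ndufb4, with 19.1% of its 31-base words shared, had 14.5 and 12.1 CPM in TKO D2 libraries and 9.33 and 11.5 CPM in WT D2 libraries, and its call (0.35 ± 0.13, adjusted p = 0.0437) was lost when any 1 of 9 libraries was left out (adjusted p of 0.0505 to 0.358). Among the lowest calls at D6 was the core subunit Ndufs7 (-0.22 ± 0.073, adjusted p = 0.0233). Its call was lost without WT D6 replicate 2 (adjusted p = 0.103) and without TKO D6 replicate 2 (adjusted p = 0.157).

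Complex II oxidises succinate and, unlike the other complexes, is encoded wholly in the nucleus. In TKO cells, 1 of its 4 genes was higher at D0 (19.4% of all genes) and 2 were higher at D8 (35.8%). Sdha, its flavoprotein with the catalytic site, had 267 and 253 CPM in TKO D0 libraries and 289 and 276 CPM in WT D0 libraries. Sdha had 203 and 204 CPM in TKO D8 libraries and 162 and 156 CPM in WT D8 libraries. TKO libraries were below WT libraries at D0, where the difference did not pass (-0.12 ± 0.050, adjusted p = 0.0661), and above them at D8, where it passed (0.36 ± 0.050, adjusted p = 6.11e-06), although the D8 value was -0.10 on the TPM scale. At D6 Sdha had 175 and 176 CPM in TKO libraries and 188 and 196 CPM in WT libraries and fell (-0.13 ± 0.050, adjusted p = 0.0444), a call lost when any 1 of 9 libraries was left out (adjusted p of 0.0508 to 0.177).

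Of the 4 assembly factors of complex II, 2 fell at D8 and 0 rose, where 31.8% of all genes fell and 35.8% rose. Sdhaf1, which helps to insert iron-sulphur clusters into Sdhb, had 13.2 and 11.5 CPM in TKO D0 libraries and 9.63 and 11.7 CPM in WT D0 libraries. By D8 it had 10.5 and 11.1 CPM in TKO libraries and 20.3 and 20.7 CPM in WT D8 libraries. The genotypes overlapped at D0 and were apart at D8, where Sdhaf1 fell (-0.92 ± 0.13, adjusted p = 4.04e-06). Sdhaf4, which helps Sdha to join Sdhb, had 5.70 and 5.97 CPM in TKO D8 libraries and 7.71 and 8.72 CPM in WT D8 libraries and also fell (-0.49 ± 0.12, adjusted p = 0.00192). Sdhaf2, which attaches the flavin to Sdha, overlapped between genotypes at every day.

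Complex III carries electrons from ubiquinol to cytochrome c. In TKO cells, 3 of its 8 genes were higher at D0 (19.4% of all genes) and 6 at D8 (35.8%). At both days 0 were lower, against 19.9% of all genes at D0 and 31.8% at D8. The core subunit Uqcrc1 had 132 and 132 CPM in TKO D0 libraries and 124 and 113 CPM in WT D0 libraries (0.15 ± 0.061, adjusted p = 0.0576). At D8 Uqcrc1 had 82.7 and 81.1 CPM in TKO D8 libraries and 68.3 and 67.3 CPM in WT D8 libraries (0.27 ± 0.062, adjusted p = 0.000855). Its groups were apart at both days, and the D8 value was -0.077 on the TPM scale. Uqcrq, a small subunit next to cytochrome b, had 97.0 and 88.1 CPM in TKO D0 libraries and 46.9 and 63.1 CPM in WT D0 libraries (0.75 ± 0.11, adjusted p = 4.51e-05). At D8 it stood at 78.5 and 73.1 CPM in TKO cells and 44.6 and 45.9 CPM in WT cells (0.74 ± 0.11, adjusted p = 1.45e-05). Uqcrb, which binds beside cytochrome b, had 83.6 and 74.5 CPM in TKO D2 libraries and 90.3 and 99.9 CPM in WT D2 libraries. At D8 Uqcrb had 56.9 and 57.9 CPM in TKO D8 libraries and 37.6 and 38.7 CPM in WT D8 libraries. It was lower at D2 (-0.27 ± 0.086, adjusted p = 0.0217) and higher at D8 (0.59 ± 0.089, adjusted p = 1.3e-05), with 32.4% of its 31-base words shared. The D2 call was lost without WT D2 replicate 2 (adjusted p = 0.229) and without TKO D2 replicate 2 (adjusted p = 0.203).

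Complex IV, cytochrome c oxidase, had 9 of 17 tested genes higher and 1 lower in TKO cells at D0, and 14 higher and 0 lower at D8. Among all genes, 19.4% were higher and 19.9% lower at D0, and 35.8% and 31.8% at D8. Cox4i1, the common form of a nuclear subunit, crossed over between these days. Its levels were 427 and 413 CPM in TKO D0 libraries and 521 and 514 CPM in WT D0 libraries. At D2 Cox4i1 had 392 and 370 CPM in TKO libraries and 501 and 540 CPM in WT libraries. At D8 Cox4i1 had 311 and 312 CPM in TKO D8 libraries and 261 and 256 CPM in WT D8 libraries. TKO libraries were below WT libraries at D0, D2 and D4 and above them at D8. The log2 fold changes were -0.30 ± 0.060 (adjusted p = 0.000639), -0.45 ± 0.060 (adjusted p = 1.51e-05), -0.27 ± 0.060 (adjusted p = 0.00267) and 0.27 ± 0.060 (adjusted p = 0.00074) at those 4 days. The D8 value was -0.10 on the TPM scale. Cox7c, a small structural subunit, had 183 and 169 CPM in TKO D0 libraries and 127 and 96.7 CPM in WT D0 libraries. It rose at D0 (0.65 ± 0.097) and D8 (0.44 ± 0.099), and 24.55% of its 31-base words are shared. At D4 Cox7c had 106 and 103 CPM in TKO libraries and 132 and 131 CPM in WT libraries and fell (-0.32 ± 0.097, adjusted p = 0.0192). That call was lost without any 1 of the 4 D4 libraries (adjusted p of 0.067 to 0.11). Cox6a1, of whose 31-base words 18.45% are shared, rose at D0 (0.30 ± 0.065, adjusted p = 0.00143) and did not pass at D8, with 91.7 and 93.9 CPM in TKO cells and 96.9 and 95.4 CPM in WT cells, a difference of -0.051 ± 0.067. At D4 it fell (-0.21 ± 0.067, adjusted p = 0.0241), a call lost without WT D4 replicate 2 (adjusted p = 0.183) and without TKO D4 replicate 2 (adjusted p = 0.257).

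Some members of complex IV have a second gene with a narrower range of tissues, and at D8 the widest of the differences that passed were among these. Cox7b2, a paralogue of Cox7b known mainly from human testis, had 4.18 and 5.12 CPM at D0, 7.99 and 6.45 CPM at D2, 4.06 and 3.63 CPM at D4, 3.71 and 5.44 CPM at D6 and 4.54 and 4.32 CPM at D8 in TKO cells. In WT cells it had 0.255 and 0.162 CPM at D0, 0.387 and 0.495 CPM at D2, 0.0888 and 0.245 CPM at D4, 0 counts at D6, and 0 and 0.0899 CPM at D8. Every TKO library was above every WT library. The log2 fold changes were 4.45 ± 0.38 at D0 (adjusted p = 1.59e-07), 4.00 ± 0.33 at D2 (adjusted p = 1.25e-07) and 4.50 ± 0.40 at D4 (adjusted p = 3.71e-07). At D6 the 2 TKO libraries held 283 counts and the 2 WT libraries 0, so that Cox7b2 was at least 94.65-fold higher if the WT group is set to the floor of 3 counts. At D8 the counts were 271 and 3, a ratio of 101.1 with a 95% exact interval of 34.22 to 493.2 that covers counting error only. Cox7b, its widely expressed partner, was far more abundant and differed less, with 86.0 and 84.8 CPM in TKO D8 libraries and 58.9 and 61.7 CPM in WT D8 libraries (0.50 ± 0.083, adjusted p = 3.67e-05). Male germ cell markers moved the same way at D8, 3 of the 4 tested being higher in TKO cells. The 6 listed summed to 147 and 146 CPM in TKO libraries and 2.73 and 1.62 CPM in WT libraries, and Tnp2 and Prm1 were at 0 in TKO D8 libraries. At D0 the same sum was 78.6 and 68.7 CPM in TKO libraries and 68.8 and 74.0 CPM in WT libraries, but its genes went both ways. Dazl, a germ cell RNA-binding protein, had 58.6 and 49.8 CPM in TKO D0 libraries and 5.87 and 4.09 CPM in WT D0 libraries (3.44 ± 0.18), while Sycp3 (-2.49 ± 0.17) and Ddx4 (-0.76 ± 0.14) fell. The part of these markers in the Cox7b2 result was not tested at any day.

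Cox7b2 lies on the reverse strand of chromosome 5, at chr5:71442824-71548205 in GENCODE M21 on GRCm38. The 250 bases before the starts of Cox7b2 and Cox7b are shown because they belong to the pair of paralogues with the widest and a modest difference between genotypes, with each CpG in capitals, read 5′ to 3′ on the strand of the gene (RefSeq, GRCm38.p6). The Cox7b2 window, chr5:71548206-71548455, holds 9 CpG, and the Cox7b window, chrX:106015450-106015699 on the forward strand, holds 5, against a median of 14 in the members' windows and 6 in those of all genes. These counts describe the letters only.
Cox7b2: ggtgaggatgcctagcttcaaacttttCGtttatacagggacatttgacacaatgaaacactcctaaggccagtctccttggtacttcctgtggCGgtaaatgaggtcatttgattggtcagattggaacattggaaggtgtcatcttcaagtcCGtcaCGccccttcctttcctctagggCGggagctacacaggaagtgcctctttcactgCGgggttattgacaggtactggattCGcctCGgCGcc
Cox7b: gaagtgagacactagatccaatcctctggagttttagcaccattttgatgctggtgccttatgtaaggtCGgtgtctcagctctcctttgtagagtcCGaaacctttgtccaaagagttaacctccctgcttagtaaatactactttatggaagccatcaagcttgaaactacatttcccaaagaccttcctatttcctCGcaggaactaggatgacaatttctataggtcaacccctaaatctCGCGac

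Cox6b2, the testis isoform of Cox6b1, was well above its floor in both genotypes. Its levels were 32.8 and 30.5 CPM in TKO D0 libraries and 38.2 and 28.7 CPM in WT D0 libraries. At D4 Cox6b2 had 30.8 and 32.4 CPM in TKO libraries and 19.3 and 12.5 CPM in WT libraries. At D8 Cox6b2 had 20.5 and 21.3 CPM in TKO D8 libraries and 9.44 and 8.51 CPM in WT D8 libraries. The genotypes overlapped at D0, D2 and D6 and were apart at D4 (0.99 ± 0.16, adjusted p = 0.000154) and D8 (1.22 ± 0.17, adjusted p = 5.65e-06). Cox6b1, the common form, had 85.0 and 88.5 CPM in TKO D8 libraries and 76.4 and 72.5 CPM in WT D8 libraries. Its D8 difference of 0.22 ± 0.093 (adjusted p = 0.0453) was lost when 1 of 9 libraries was left out in turn, with adjusted p of 0.0582 to 0.164, and turned to -0.18 on the TPM scale.

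Ndufa4l2, a paralogue of Ndufa4 known as a target of the hypoxia response, fell steeply with differentiation. It had 15.6 and 18.4 CPM in TKO D0 libraries and 37.5 and 11.2 CPM in WT D0 libraries. At D8 Ndufa4l2 had 0.629 and 1.01 CPM in TKO cells and 0.370 and 0.180 CPM in WT cells. The genotypes overlapped at D0, and no library of D2 or later reached the lowest D0 library. D8 against D0 gave -4.35 ± 0.46 in TKO cells (adjusted p = 1.83e-07) and -6.44 ± 0.53 in WT cells (adjusted p = 2.86e-09). Ndufa4 itself had 96.6 and 98.0 CPM in TKO D8 libraries and 107 and 106 CPM in TKO D0 libraries, a change of -0.13 ± 0.074 that did not pass. Cox7a1, the heart and muscle partner of Cox7a2, also fell. It had 0.699 and 1.23 CPM in TKO D8 libraries and 3.34 and 2.56 CPM in TKO D0 libraries (-1.60 ± 0.30). WT cells had 1.17 and 0.809 CPM at D8 and 4.50 and 2.76 CPM at D0 (-1.87 ± 0.29).

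The remaining restricted isoforms were near the limit of detection. Cox4i2, a lung isoform of Cox4, held 13 counts in the 2 TKO D8 libraries and 2 in the 2 WT D8 libraries, a ratio of 7.27 (95% exact interval 1.65 to 66.4), and its call (adjusted p = 0.0288) was lost without WT D8 replicate 2 (adjusted p = 0.17), TKO D8 replicate 1 (adjusted p = 0.0999) or TKO D8 replicate 2 (adjusted p = 0.0507). Cox6a2, a heart and muscle isoform, held 15 counts in TKO D8 libraries and 0 in WT D8 libraries, at least 5.59-fold higher against the floor, and reached 0.175 and 0.306 CPM in those TKO libraries. The summed muscle markers, 5 genes, stood at 20.5 and 19.9 CPM in TKO D8 libraries and 7.94 and 7.49 CPM in WT D8 libraries, and their part was not tested. Cox8c, a form of Cox8 known from testis, held 6 and 0 counts, 2.24-fold higher with the same floor. Neither Cox6a2 nor Cox8c was tested, and these folds take no account of counting error. Cox8b, another muscle isoform, had 1 count in TKO D8 libraries and 0 in WT D8 libraries, both under the floor. Their common partner Cox8a had 114 and 112 CPM in TKO D8 libraries and 80.1 and 79.0 CPM in WT D8 libraries, and it rose at D0 (0.44 ± 0.074) and D8 (0.50 ± 0.074).

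**Figure D3:**
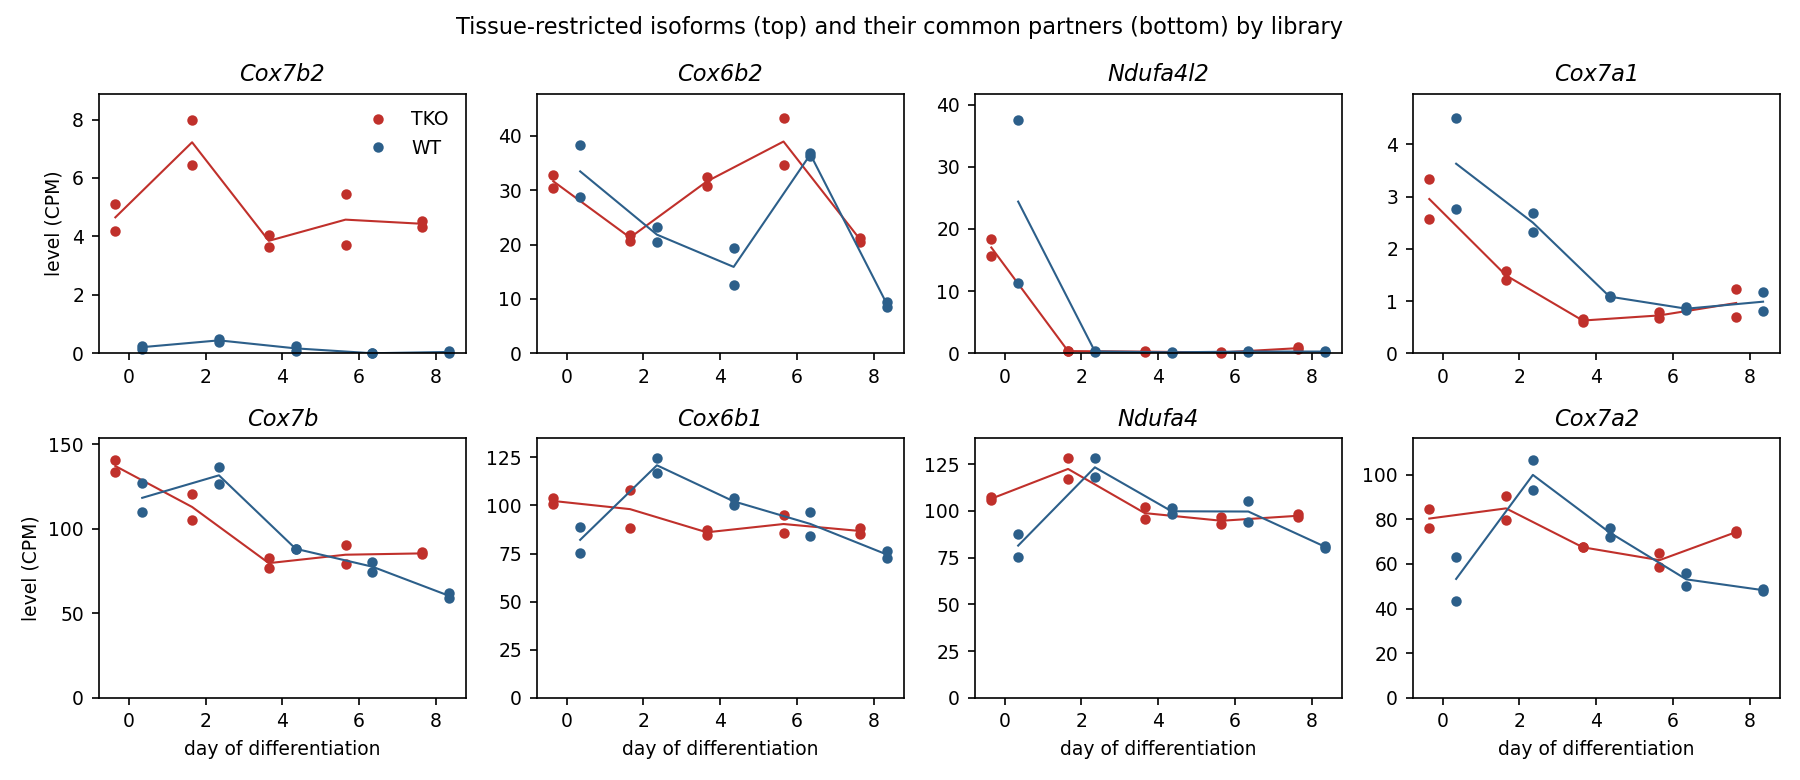
Level in CPM after TMM scaling of 4 restricted isoforms (Cox7b2, Cox6b2, Ndufa4l2, Cox7a1) and of their common partners (Cox7b, Cox6b1, Ndufa4, Cox7a2) by day in TKO and WT cells, with each point a library and each line through the mean of 2. Cox7b2 lies between 3.63 and 7.99 CPM in TKO libraries and at or under 0.495 CPM in WT libraries, and the lowest value of a partner is 43.3 CPM.

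ATP synthase, the last enzyme of the pathway, had 9 of 17 tested genes higher and 1 lower in TKO cells at D0. At D8, 13 were higher and 0 lower. The shares of all genes were 19.4% higher and 19.9% lower at D0, and 35.8% and 31.8% at D8. Atp5b, the catalytic beta subunit, was the most abundant member per length, with a mean of 1341 TPM over the 10 groups, ahead of Cox4i1 at 937 TPM and Atp5g3 at 556 TPM. In CPM it had 2136 and 2101 in TKO D0 libraries and 1931 and 1901 in WT D0 libraries. D6 values were 999 and 978 in TKO libraries and 882 and 958 in WT libraries, and D8 values were 1310.3 and 1269 in TKO D8 libraries and 809 and 793 in WT D8 libraries. TKO libraries were above WT libraries at D0, D6 and D8. The D8 difference of 0.69 ± 0.052 had an adjusted p of 2.36e-09, and the D0 difference of 0.15 ± 0.052 (adjusted p = 0.0348) was lost when 1 of 8 libraries was left out in turn, with adjusted p of 0.0511 to 0.169.

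Atp5a1, the alpha subunit that alternates with beta in the catalytic head, ran against Atp5b at first. It had 429 and 435 CPM in TKO D0 libraries and 523 and 503 CPM in WT D0 libraries. At D8 Atp5a1 had 424 and 426 CPM in TKO D8 libraries and 313 and 316 CPM in WT D8 libraries. TKO libraries were below WT libraries at D0 (-0.25 ± 0.048, adjusted p = 0.000562) and above them at D8 (0.43 ± 0.048, adjusted p = 3.65e-07). The 3 genes of the membrane c-ring, Atp5g1, Atp5g2 and Atp5g3, encode the same mature protein with different import signals, and all 3 rose in TKO cells at D0 and at D8. Atp5g1 had 134 and 124 CPM in TKO D0 libraries and 75.8 and 72.3 CPM in WT D0 libraries (0.80 ± 0.081, adjusted p = 5.49e-07). At D8 Atp5g1 had 105 and 106 CPM in TKO D8 libraries and 60.3 and 61.3 CPM in WT D8 libraries (0.80 ± 0.081, adjusted p = 1.1e-07), with 13.7% of its 31-base words shared. Atp5g2 had 19.1 and 18.4 CPM in TKO D8 libraries and 8.11 and 10.8 CPM in WT D8 libraries (0.99 ± 0.12), with 37.5% of its 31-base words shared. Atp5g3 had 202 and 212 CPM in TKO D8 libraries and 150 and 152 CPM in WT D8 libraries (0.46 ± 0.080). The D0 call of Atp5g2 was lost without WT D0 replicate 2 (adjusted p = 0.103) and without TKO D0 replicate 2 (adjusted p = 0.109), and that of Atp5g3 without WT D0 replicate 2 (adjusted p = 0.0626). Atp5c1, the rotating gamma subunit, rose at D0 (0.24 ± 0.066), D6 (0.27 ± 0.066) and D8 (0.65 ± 0.067), with 211 and 212 CPM in TKO D8 libraries and 134 and 136 CPM in WT D8 libraries and 10.1% of its 31-base words shared. Atp5e, the epsilon subunit of the rotor, rose at D0 and D8 and fell at D4 and at D6 (-0.27 ± 0.072, adjusted p = 0.00619), the D6 call being lost without WT D6 replicate 2 (adjusted p = 0.0788).

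At D2 against D0, 25 members rose and 17 fell in TKO cells, where 53.6% of all genes passed, 26.6% higher and 26.9% lower. Their median log2 change was 0.066, and with either other scale 33 rose and 14 fell. In WT cells 56 members rose and 4 fell, where 54.7% of all genes passed, 25.8% higher and 28.9% lower, with a median of 0.37, or 0.41 above all genes. Both comparisons stand on their own D0 libraries, and the difference between them was not tested. Atp5g1 was among the genes that rose most, with 190 and 172 CPM in TKO D2 libraries against 134 and 124 CPM in TKO D0 libraries (0.48 ± 0.079). In WT cells Atp5g1 had 163 and 174 CPM at D2 against 75.8 and 72.3 CPM at D0 (1.19 ± 0.081). Ndufs6 changed by 0.18 ± 0.084 in TKO cells, which did not pass (adjusted p = 0.0866), and rose in WT cells (0.86 ± 0.084, adjusted p = 1.09e-07). D2 was the day of the highest mean CPM for 50 of the 85 members in TKO cells and for 72 in WT cells. In TKO cells 30 others were highest at D0. The day of the highest CPM was not counted over all genes, so no background stands beside these numbers. The mitochondrially encoded subunits gave 0 higher and 8 lower of 13 in TKO cells at D2, and 1 higher and 6 lower in WT cells.

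At D4 and D6 more members fell than rose against D0 in both genotypes after TMM scaling, but in TPM this held at D4 in TKO cells alone. In TKO cells 5 rose and 56 fell at D4 against D0, where 66.5% of all genes passed, 34.4% higher and 32.1% lower. At D6, 5 rose and 69 fell, where 71.9% of all genes passed, 36.1% higher and 35.8% lower. In WT cells 25 rose and 28 fell at D4, where 64.8% of all genes passed, 33.1% higher and 31.8% lower. At D6, 13 rose and 40 fell, where 71.1% of all genes passed, 35.2% higher and 35.9% lower. Relative to the median of all genes, the members' median change at D6 was -0.42 in TKO cells and -0.13 in WT cells, and -0.29 and 0.002 on the TPM scale. The splits depended on the scale. In TPM 22 rose and 27 fell at D4 and 26 rose and 23 fell at D6 in TKO cells. In WT cells 39 rose and 20 fell at D4 and 44 rose and 18 fell at D6 in TPM, while with total counts 18 rose and 28 fell at D6 in WT cells.

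At D8 against D0, 1 member rose and 60 fell in TKO cells, where 65.1% of all genes passed, 34.2% higher and 30.8% lower. In WT cells 3 rose and 65 fell, where 76.8% passed, 37.8% higher and 39.0% lower. The median change was -0.33 in TKO cells and -0.40 in WT cells, which is -0.38 and -0.41 relative to all genes and -0.29 and -0.28 on the TPM scale relative to all genes. The median over all genes was itself 0.049, 0.175 and 0.28 in TKO cells and 0.004, 0.273 and 0.442 in WT cells with TMM, total counts and TPM. Without taking it off, the TPM scale gave 17 higher and 25 lower in TKO cells and 44 higher and 17 lower in WT cells, and total counts gave 6 higher and 46 lower in TKO cells and 14 higher and 44 lower in WT cells. There were 54 members (63.5% of those tested) that fell in both genotypes, as did 24.8% of all genes. Atp5b fell to 1310.3 and 1269 CPM in TKO D8 libraries, against 2136 and 2101 CPM in TKO D0 libraries (-0.72 ± 0.052, adjusted p = 1.44e-09). In WT cells it fell to 809 and 793 CPM in WT D8 libraries, against 1931 and 1901 CPM in WT D0 libraries (-1.26 ± 0.053, adjusted p = 2.17e-13). Cox6a1 fell by 0.90 ± 0.066 on the log2 scale in TKO cells and by 0.55 ± 0.066 in WT cells, the WT value turning to 0.047 on the TPM scale. The members that rose were assembly factors of complex II: Sdhaf2 in TKO cells (0.59 ± 0.10), and Sdhaf1 (0.94 ± 0.13), Sdhaf2 (0.45 ± 0.098) and Sdhaf4 (0.28 ± 0.12, adjusted p = 0.0467) in WT cells, the last being lost when any 1 of 18 libraries was left out (adjusted p of 0.0528 to 0.439, the highest without WT D0 replicate 2).

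Whether the change to D8 differed between genotypes was tested as an interaction, in which a positive value means a smaller fall or a larger rise in TKO cells. It passed for 25 members, 19 above 0 and 6 below 0, where 52.3% of all genes passed, 29.3% above 0 and 22.9% below, so the members' share was below the background. The split was 13 and 13 with total counts, 17 and 8 with relative log expression scaling and 9 and 35 in TPM, and it was 14 and 13 without WT D0 replicate 1 and 28 and 4 without WT D0 replicate 2. Atp5a1 had 424 and 426 CPM in TKO D8 libraries against 429 and 435 CPM in TKO D0 libraries. Its WT values were 313 and 316 CPM at D8 against 523 and 503 CPM at D0, an interaction of 0.68 ± 0.068 (adjusted p = 2.08e-07). Cox6b2 (1.30 ± 0.23, adjusted p = 0.000122), Uqcrb (0.65 ± 0.12, adjusted p = 0.000265), Cox4i1 (0.57 ± 0.084, adjusted p = 1.98e-05) and Atp5b (0.54 ± 0.074, adjusted p = 7.19e-06) had the same sign. Sdhaf1 (-1.14 ± 0.18, adjusted p = 4.23e-05), Sdhaf4 (-0.62 ± 0.18, adjusted p = 0.0064), Ndufa3, a small membrane-arm subunit of complex I (-0.51 ± 0.15, adjusted p = 0.00882), and Cox6a1 (-0.35 ± 0.093, adjusted p = 0.00419) had the opposite sign. The interaction of Ndufa4l2 (2.09 ± 0.81, adjusted p = 0.0386) was lost without WT D0 replicate 1 (adjusted p = 0.0927), WT D8 replicate 2 (adjusted p = 0.151), TKO D0 replicate 1 (adjusted p = 0.0692) or TKO D8 replicate 2 (adjusted p = 0.194). That of Ndufa3 was lost without TKO D0 replicate 1 (adjusted p = 0.0626) or TKO D8 replicate 1 (adjusted p = 0.0545).

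**Figure D4:**
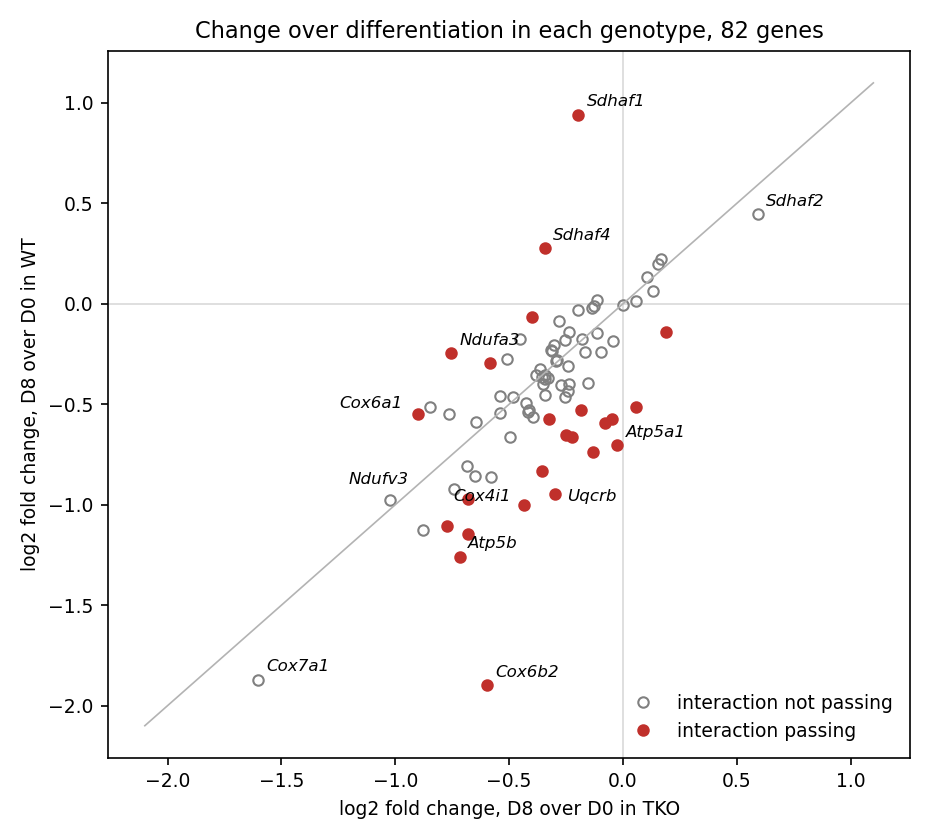
Log2 change of D8 over D0 after TMM scaling in TKO cells on the horizontal axis and in WT cells on the vertical axis, with each point a tested member (82 drawn; Ndufa4l2, Cox4i2 and Cox7b2 lie outside or near 0 counts) and filled points for an adjusted p under 0.05 in the interaction. Most members lie below 0 on both axes and Sdhaf1 lies above 0 on the WT axis, whereas on the TPM scale the median member change is -0.010 in TKO cells and 0.17 in WT cells.

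The last step, D8 against D6, was compared after the other results were known. In TKO cells 26 members rose and 5 fell, where 50.0% of all genes passed, 25.5% higher and 24.5% lower. In WT cells 2 rose and 46 fell, where 57.0% passed, 26.6% higher and 30.4% lower. The interaction passed for 48 members, 46 above 0 and 2 below 0 (Sdhaf1 and Sdhaf4), where 49.9% of all genes passed, 25.5% above 0 and 24.4% below. With total counts the interaction passed for 21 members, 18 above 0 and 3 below, and in TPM for 24, 10 above 0 and 14 below. In WT cells the split was 7 higher and 26 lower with total counts and 15 higher and 12 lower in TPM, and in TKO cells 16 higher and 9 lower and 7 higher and 15 lower. The TKO count of 31 became 20 without TKO D6 replicate 1, 20 without TKO D8 replicate 1 and 19 without TKO D8 replicate 2. The members' median interaction was 0.31 above that of all genes, and 0.20 on the TPM scale. Atp5b had 1310.3 and 1269 CPM in TKO D8 libraries against 999 and 978 CPM in TKO D6 libraries (0.38 ± 0.052), and 809 and 793 CPM in WT D8 libraries against 882 and 958 CPM in WT D6 libraries (-0.20 ± 0.052). Ndufa7 gave an interaction of 0.75 ± 0.10 (adjusted p = 8.72e-06) and Atp5g1 one of 0.73 ± 0.12 (adjusted p = 4.27e-05). After TMM scaling, more members rose than fell in TKO cells, and more fell than rose in WT cells. The summed pluripotency markers were higher at D8 than at D6 in both genotypes. Their sums were 1180.3 and 1114 CPM in TKO D8 libraries against 204 and 154 CPM in TKO D6 libraries, and 74.0 and 49.4 CPM in WT D8 libraries against 23.7 and 14.1 CPM in WT D6 libraries. The 8 neuron markers had a lower sum at D8 than at D6 in TKO cells and a higher one in WT cells. They summed to 903 and 896 CPM in TKO D8 libraries against 1089.6 and 1389 CPM in TKO D6 libraries, and to 3408 and 3436 CPM in WT D8 libraries against 741 and 674 CPM in WT D6 libraries. None of the 8 neuron markers rose and 6 fell in TKO cells, and 7 rose and 0 fell in WT cells. The part of either list in the result was not tested.

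The changes of the members were mostly small. With a log2 fold change of at least 0.5 asked for beside the adjusted p, TKO against WT left 9 members at D0 (21.5% of all genes met this), 1 at D2 (18.7%), 3 at D4 (14.8%), 1 at D6 (23.9%) and 22 at D8 (50.7%). Against D0, TKO cells kept 11 members at D2 (34.3% of all genes), 25 at D4 (49.5%), 39 at D6 (56.4%) and 24 at D8 (47.2%). WT cells kept 34 at D2 (36.2% of all genes), 16 at D4 (47.4%), 21 at D6 (55.8%) and 37 at D8 (63.7%). The interaction of D8 with D0 kept 13 (41.5% of all genes), D8 against D6 kept 7 in TKO cells (29.3%) and 9 in WT cells (36.5%), and its interaction kept 16 (38.2%). At an adjusted p under 0.01, TKO against WT gave 10 members at D2 (24.0% of all genes), 7 at D4 (17.4%) and 6 at D6 (29.5%), and D8 against D6 gave 15 in TKO cells (38.1%) and 30 as an interaction (39.1%).

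Other genes of the mitochondrion, from lists of the pathway, differed from the members in part. Over all genes, 19.4% were higher and 19.9% lower in TKO cells at D0, 20.9% and 20.3% at D6, and 35.8% and 31.8% at D8. Of the 13 mitochondrially encoded subunits, 3 rose in TKO cells at D0, and 7 rose and 1 fell at D8, with a median of 0.20 above all genes at D8. The D8 picture depended on the scale. They summed to 28331 and 28357 CPM in TKO D8 libraries and 22038 and 22283 CPM in WT D8 libraries. In TPM the TKO D8 sums of 62009 and 59495 lay below the WT D8 sums of 68123 and 69991. mt-Co1, the catalytic subunit of complex IV, had 9635 and 9900.1 CPM in TKO D8 libraries and 7029 and 6924 CPM in WT D8 libraries (0.49 ± 0.068, adjusted p = 5.29e-06). The 46 assembly factors outside the symbol pattern gave 17 higher and 9 lower at D8 and 2 higher and 15 lower at D6, with medians near that of all genes on the TPM scale at D8 (0.003 above it). Mitochondrial ribosomal proteins rose with the members, 61 of 78 being higher and 2 lower at D8 and 28 higher and 1 lower at D0. Cytosolic ribosomal proteins moved furthest, 83 of 85 being higher at D8 with a median 0.96 above all genes. Of 18 enzymes and subunits of the tricarboxylic acid cycle, 9 rose and 3 fell at D8, where 67.5% of all genes passed. Their D8 sums were 2134.5 and 2096.8 CPM in TKO libraries and 1796.4 and 1772.5 CPM in WT libraries. In TPM the TKO D8 sums of 1841.3 and 1824.5 lay below the WT D8 sums of 2003.2 and 1974.5. Of 18 regulators of mitochondrial biogenesis, 12 rose and 3 fell at D8. Pprc1, a coactivator of nuclear genes for respiration, had 187 and 186 CPM in TKO D8 libraries and 80.9 and 76.4 CPM in WT D8 libraries (1.25 ± 0.080, adjusted p = 2.59e-10). 2 regulators are named after their values were seen. Gabpa, a subunit of the ETS-family factor also called NRF2, had 92.6 and 92.1 CPM in TKO D8 libraries and 62.2 and 63.1 CPM in WT D8 libraries (0.56 ± 0.053), and Nrf1, which binds many promoters of respiratory genes, also rose at D8 (0.44 ± 0.067, adjusted p = 1.46e-05). Ppargc1a, a coactivator known from energy-demanding tissues, had 0.839 and 0.949 CPM in TKO D8 libraries and 2.53 and 1.86 CPM in WT D8 libraries and fell (-1.29 ± 0.37, adjusted p = 0.0047). At earlier days it went the other way in edgeR, being higher in TKO cells at D4 (3.71 ± 0.59, adjusted p = 0.000145) and D6 (4.44 ± 0.53, adjusted p = 3.31e-06).

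Promoter windows, which the symbol rule did not use, were searched for motifs. RefSeq gave promoter windows on GRCm38.p6 for 70 of the 89 genes, 75 windows in all, and the 250 bases before each start were searched on both strands. The motif of NRF1, spelled GCGCA, any 1 base and GCGC, occurred in 14 of the 75 windows (18.7%) and in 3.74% of all 32851 windows. The ETS motif, spelled CCGGAAG, occurred in 14 (18.7%) and in 6.91% of all, at least 1 of these motifs in 25 (33.3%) and in 10.1% of all, and the GC box GGGCGG in 27 (36.0%) and in 32.7% of all. Each of these motifs contains CpG, and the median CpG count was 14 in the members' windows and 6 in all windows. The part of CpG content in these shares was not tested. In TKO cells at D8, 35.8% of all genes were higher and 31.8% lower. Of the 13 tested members with the NRF1 motif, 10 were higher and 0 lower at D8, with a median log2 fold change of 0.49. Of the 14 with the ETS motif, 7 were higher and 0 lower, with a median of 0.22, and of the 45 with neither motif 33 were higher and 3 lower, with a median of 0.31. A match describes letters in the window and is no evidence of binding, and no difference between these groups was tested.

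The windows of 4 members with the NRF1 motif are shown because these genes are described above: Sdha and Ndufs6 had TKO libraries below WT libraries at an earlier day and above them at D8, Ndufa11 was higher in TKO cells at D0, D6 and D8, and Cox6a1 was higher at D0 and at no later day. Capitals mark the NRF1 motif, which in Ndufs6 is matched by its reverse complement, and, in Cox6a1, also the reverse complement of the ETS motif, and each runs 5′ to 3′ on the strand of the gene. Sdha (chr13:74350241-74350490, reverse strand) holds the motif 3 times, ending next to the start, Ndufs6 (chr13:73328483-73328732, reverse strand) once, Cox6a1 (chr5:115348959-115349208, reverse strand) at 2 places, and Ndufa11 (chr17:56717512-56717761, forward strand) once.
Sdha: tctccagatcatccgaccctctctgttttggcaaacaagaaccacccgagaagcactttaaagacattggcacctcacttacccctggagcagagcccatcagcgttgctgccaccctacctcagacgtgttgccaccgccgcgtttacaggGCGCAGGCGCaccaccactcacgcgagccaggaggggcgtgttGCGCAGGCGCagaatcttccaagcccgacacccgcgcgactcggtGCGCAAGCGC
Ndufs6: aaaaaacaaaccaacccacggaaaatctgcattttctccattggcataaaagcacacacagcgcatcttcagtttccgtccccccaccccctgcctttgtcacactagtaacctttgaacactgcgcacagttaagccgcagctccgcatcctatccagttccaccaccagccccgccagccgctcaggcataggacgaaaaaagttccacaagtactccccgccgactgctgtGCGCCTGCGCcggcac
Cox6a1: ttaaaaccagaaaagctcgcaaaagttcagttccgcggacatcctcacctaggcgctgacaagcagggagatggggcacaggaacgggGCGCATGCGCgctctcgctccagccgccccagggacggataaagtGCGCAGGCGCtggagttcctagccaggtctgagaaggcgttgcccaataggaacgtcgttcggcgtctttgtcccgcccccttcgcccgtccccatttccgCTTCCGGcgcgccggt
Ndufa11: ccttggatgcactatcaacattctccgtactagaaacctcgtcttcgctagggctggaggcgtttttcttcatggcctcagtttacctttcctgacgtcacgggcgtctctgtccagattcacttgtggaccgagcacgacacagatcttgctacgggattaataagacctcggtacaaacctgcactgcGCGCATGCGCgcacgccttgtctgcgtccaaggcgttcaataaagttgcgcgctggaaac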

How the data were processed

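RNA from 20 libraries, 2 for each of the 10 groups of genotype and day, was made into TruSeq Stranded mRNA libraries, per the labels' protocols. Per the submitters' processing notes, Trim Galore 0.6.2, kallisto and the builds GRCm38 and mm10 were used; their roles are not stated there. The deposited files, 1 per library, give for each of 119414 transcripts an estimated count, a TPM value scaled by the authors to the library, and a length and effective length in bases (other columns, per the file headers). How the 2 replicates of a group were grown is not given in the sources used here, so p-values measure the spread between these samples.

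Of the transcripts, 116728 matched GENCODE M21 (GRCm38), 116161 of them with the exact version, and the 2686 unmatched ones held 0.943% to 1.099% of counts and were left out. Estimated counts were summed to 35975 genes and rounded to whole numbers. The main test was edgeR 4.0.16's quasi-likelihood F test (R 4.3.3) with TMM scaling, edgeR's filter on low counts over the 10 groups, 1 mean per group, all 20 libraries sharing 1 estimate of the spread with 10 residual degrees of freedom, no replicate block, and Benjamini-Hochberg adjustment over the 18555 genes kept. A call is an adjusted p under 0.05, and errors beside fold changes are standard errors. The biological coefficient of variation was 0.069. CPM are counts per 1000000 after TMM scaling, and a floor of 3 counts over a group stands in for 0. Intervals are 95% exact ones for counting error alone. The script was tested on simulated data with set changes between TKO and WT at D0. It recovered 17 of 50 genes changed 1.25-fold, 33 of 50 changed 1.5-fold and 46 of 50 changed 2-fold. Most changes of 1.25-fold were thus missed there, and recovery for the members themselves was not tested. Other steps used Python 3.11.15 with numpy 2.4.6, pandas 2.3.3 and scipy 1.17.1.

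Alternatives were relative log expression scaling, total counts, no filter, a replicate block, counts from length-scaled TPM, DESeq2 1.42.0, the compared groups alone, an adjusted p under 0.01, a log2 change of at least 0.5, members with under 10% of 31-base words shared with other genes, and each library left out. The comparison of D8 with D6, and limma 3.58.1 on log2(TPM + 0.5), named the TPM scale, were added after seeing the data; a fold change on that scale understates the change of low genes. Shared 31-base words mark members whose reads the quantification could split with another gene; 23 members had 10% or more.

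The members and gene lists were chosen with earlier results of these data known. Named were the 4 highest and 4 lowest called members of each comparison of genotypes and of D8 with D0, 1 core subunit per complex, the tissue-restricted isoforms with their partners, members called at all 5 days or in opposite directions, and up to 3 genes per other list. A member that this rule takes in is not reported here. The list of cytosolic ribosomal proteins leaves out the S6 kinases, whose symbols its pattern also took in. Deviations of same-numbered libraries from their group means, over all genes tested, correlated by -0.041 to 0.053 over 45 pairs of groups. No pairing by replicate number was seen in this check. With 2 libraries per group it cannot exclude a shared batch that acts on few genes.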

Additional observations from a re-analysis of the deposited data

Results flagged for a closer look

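The change from D0 to D8 differed between TKO and WT cells for 25 of the 85 tested members, by the test of the interaction, which 52.3% of all genes passed. The change from D6 to D8 differed for 48 members, where 49.9% of all genes passed. For both interactions the split of signs moved with the scale, as given above. The number of calls moved too. Cox6b2, the testis isoform of Cox6b1, kept more of its level in TKO cells, with an interaction of 1.30 on the log2 scale. Ndufa4l2 had an interaction of 2.09, with WT D0 libraries that lay far apart, at 37.5 and 11.2 CPM. It fell to 0.97 without WT D0 replicate 1 (adjusted p = 0.0927 in edgeR), and the call was also lost without WT D8 replicate 2 (adjusted p = 0.151), TKO D0 replicate 1 (adjusted p = 0.0692) or TKO D8 replicate 2 (adjusted p = 0.194). Atp5a1 (0.68) did not pass in TKO cells and fell in WT cells, and Uqcrb (0.65) fell in both, by 0.30 in TKO cells and by 0.95 in WT cells. The interaction had the opposite sign for Sdhaf1 (-1.14), Sdhaf4 (-0.62), Ndufa3 (-0.51) and Cox6a1 (-0.35). Sdhaf1 did not pass in TKO cells and rose in WT cells, with 10.5 and 11.1 CPM in TKO D8 libraries and 20.3 and 20.7 CPM in WT D8 libraries.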

How the results depend on the processing

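Counts of called members are given for TKO against WT at D0, D2, D4, D6 and D8, where they were 48, 21, 16, 14 and 64; for D2, D4, D6 and D8 against D0 in TKO (42, 61, 74, 61) and in WT (60, 53, 53, 68); for the D8 to D0 interaction (25); and for D8 against D6 in TKO (31), in WT (48) and as an interaction (48). With a log2 change of at least 0.5 they were 9, 1, 3, 1 and 22; 11, 25, 39 and 24 in TKO; 34, 16, 21 and 37 in WT; 13; and 7, 9 and 16. At an adjusted p under 0.01, TKO against WT gave 10 at D2, 7 at D4 and 6 at D6, and D8 against D6 gave 15 in TKO and 30 as an interaction. Members with fewer shared words gave 9 at D4. Counts from length-scaled TPM gave 9 at D6 and 15 for D8 against D6 in TKO, and the compared groups alone gave 9 at D6. Total counts gave 21 for the D8 to D6 interaction. The TPM scale gave 42 for TKO against WT at D8, 49 for D6 against D0 in TKO, 44 for the D8 to D0 interaction, 27 for D8 against D6 in WT and 24 for its interaction. The cause of these moves was not tested, except that the stricter thresholds and the smaller set of members leave fewer calls by construction. With 1 library left out, the counts ran over 31 to 52, 9 to 25, 7 to 23, 6 to 23 and 57 to 70 for TKO against WT; 33 to 48, 48 to 65, 62 to 76 and 52 to 63 in TKO; 53 to 61, 42 to 53, 44 to 56 and 58 to 71 in WT; 19 to 32; and 19 to 39, 33 to 55 and 33 to 56. The replicate block gave 47, 20, 16, 14 and 64 calls for TKO against WT and changed no count by over 1.5 times. The labels do not say whether the replicate numbers mark a shared batch. Of 137 values of named members, 3570 of 3834 alternatives kept the direction and side of the threshold, 244 kept the direction alone and 20 reversed. The alternatives include fits that left out a library from outside the groups compared. For 56 of the 137 values, at least 1 alternative kept the direction alone. On the TPM scale the sign turned for D8 against D0 in TKO for Atp5g1 (0.039), Cox6b1 (0.14), Sdha (0.0087) and Uqcrb (0.010), and in WT for Atp5g1 (0.22), Atp5g3 (0.41; 0.085 with total counts), Cox6a1 (0.047), Cox7c (0.064), Cox8a (0.11), Ndufs1 (0.12) and Ndufs8 (0.19). It also turned for TKO against WT at D8 for Cox4i1 (-0.10), Cox6b1 (-0.18), Ndufa1 (-0.057), Ndufa4 (-0.051), Ndufs1 (-0.22), Sdha (-0.10) and Uqcrc1 (-0.077), and at D0 for Cox7b (-0.010). Calls on members with few counts, such as Cox4i2 and Cox7b2 in WT cells, are limited by depth.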

Other observations

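Genes next to the pathway held differences as wide as those of the restricted isoforms. Cyct, the testis form of cytochrome c, had 6.97 and 5.34 CPM in TKO D0 libraries and 2.46 and 2.18 CPM in WT D0 libraries, and it rose at D0 (log2 fold change 1.41 ± 0.29, adjusted p = 0.000901 in edgeR's quasi-likelihood test). At D6 it held 47 counts in TKO libraries and 2 in WT libraries, a ratio of 23.6 (95% exact interval 6.17 to 200.4), and at D8 it held 151 and 2 counts, a ratio of 84.5 (95% exact interval 22.98 to 703.9). Among the 16 genes of cytochrome c and coenzyme Q, 5 rose and 6 fell at D0, and 6 rose and 4 fell at D8. Of all genes, 19.4% rose and 19.9% fell at D0, and 35.8% rose and 31.8% fell at D8. Coq8a and Coq8b, a pair of related genes needed for coenzyme Q, went in opposite directions at D8, with log2 fold changes of 1.40 and -1.32.

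Among the assembly factors at D8, Lyrm7, a factor for complex III, fell by 1.37 on the log2 scale (adjusted p = 9.5e-05) and Cox19, a factor for complex IV, fell by 1.28 (adjusted p = 7.63e-09), while Atpaf1, a factor for ATP synthase, rose by 1.01 (adjusted p = 5.96e-05). In the tricarboxylic acid cycle, Suclg2, a subunit of a succinyl-CoA ligase, rose by 1.22 at D8 and Idh3a, a subunit of isocitrate dehydrogenase, by 0.90. Of the other marker lists at D8, 2 of 4 tested mesoderm markers rose and 1 fell, 4 of 5 trophoblast markers rose and 0 fell, 1 of 5 mesenchyme markers rose and 2 fell, 0 of 8 neuron markers rose and 8 fell, and 3 of 5 muscle markers rose and 0 fell. Of all genes, 35.8% rose and 31.8% fell at D8. Of the 3 DNA methyltransferases, 0 rose and 3 fell at D0, and 1 rose and 2 fell at D8.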
